A study of Mus musculus with 10 samples.

Results

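Figla, Nobox, Lhx8, Sohlh1, Sohlh2 and Taf4b encode 6 transcription factors of the female germ line, and their transcripts were followed through the second part of gestation in the mouse ovary. The members were all probe sets that the array's annotation assigned to these genes: 8 of the 45037 probe sets other than controls, with 3 for Taf4b and 1 for each of the other genes. They stand for 6 of 18193 genes named on the array. Embryonic ovaries had been collected on 5 days post coitum, written E11.5 and E12.5, then E14.5, then E16.5 and last E18.5, with 2 arrays a stage from separate preparations and 10 arrays in all. The labels gave a stage and a duplicate number and named no strain, genotype, treatment or number of pooled embryos. Replicate 2 of E12.5 was not relied on, so 9 arrays were used and E12.5 rested on 1 array.

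Oocytes form in the fetal ovary when germ cells stop dividing and enter meiosis, and around birth each surviving oocyte is enclosed by pregranulosa cells in a primordial follicle. Figla is a basic helix-loop-helix (bHLH) factor that binds E-boxes and activates the zona pellucida genes, and mice without it form no primordial follicles. Sohlh1 and Sohlh2 are germ cell bHLH factors, Lhx8 is a LIM homeodomain protein and Nobox is a homeodomain protein, and mouse ovaries lacking any of these lose their oocytes after birth. In mice Sohlh1 and Sohlh2 act upstream of Figla, Lhx8 and Nobox. Taf4b is a gonad-enriched relative of Taf4, a subunit of the general transcription factor TFIID, and is needed for female fertility.

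In RefSeq's GRCm38.p6 annotation Figla (probe set 1450369_at) lay on chromosome 6 at 86016494 to 86020996. Nobox (1425759_at) lay on the same chromosome at 43303674 to 43310072. Lhx8 (1427300_at) and Sohlh2 (1429817_at) lay on chromosome 3, at 154306288 to 154330560 and 55182044 to 55209957. Sohlh1 (1460015_at) lay on chromosome 2 at 25842995 to 25847248. Taf4b had the probe sets 1431193_at, 1435302_at and 1435303_at, and the last of these, the brightest, stood for the gene. RefSeq start windows were at hand for 5 of the 6 genes, all except Taf4b. The 250 bases before the start of Lhx8 (chr3:154330561-154330810, minus strand) and of Sohlh1 (chr2:25847249-25847498, minus strand) are shown because the arrays gave these genes the most alike profiles among the 6. Both are from GRCm38.p6, read 5′ to 3′ on the gene's strand, and capitals mark matches to the E-box CANNTG, the pattern bound by bHLH factors.
Lhx8: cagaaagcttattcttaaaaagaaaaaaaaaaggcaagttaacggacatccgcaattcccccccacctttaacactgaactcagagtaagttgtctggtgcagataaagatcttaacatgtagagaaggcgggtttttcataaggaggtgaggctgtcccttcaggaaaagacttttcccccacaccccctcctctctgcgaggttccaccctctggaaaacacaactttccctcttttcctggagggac
Sohlh1: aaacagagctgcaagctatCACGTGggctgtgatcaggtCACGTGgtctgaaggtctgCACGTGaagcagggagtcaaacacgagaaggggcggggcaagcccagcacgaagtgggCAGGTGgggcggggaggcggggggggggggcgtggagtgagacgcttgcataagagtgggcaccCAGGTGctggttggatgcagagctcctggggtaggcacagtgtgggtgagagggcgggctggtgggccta
The Sohlh1 window held 5 matches to CANNTG and the Lhx8 window 0. Of 27025 gene windows of this length 66% held at least 1 match, and 1.18% held as many as Sohlh1. This pattern reads alike on both strands, so each match counts once. Of the Sohlh1 matches 3 read CACGTG, at −231, −211 and −192 from the start, and 0.0666% of windows held as many. The remaining 2, at −134 and −70, read CAGGTG, a letter order that overlaps CANNTG and occurred on either strand in 17.1% of windows. The CACGTG and CAGGTG forms were counted after the sequences had been seen. Figla and Nobox had 2 matches to CANNTG each, in windows whose start lies inside the annotated gene, and Sohlh2 had 1. The homeodomain motifs TAATTG (in 7.34% of all windows), TAATTA (in 4.9%) and TGATTG (in 13%), searched on both strands, were in none of the 5 windows. These are matches of letters and not measured binding sites.

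The deposited values were linear probe set intensities, and signals are given here after scaling every array to the same 75th percentile. Background on an array was the 95th percentile of 27 bacterial control probe sets that had no target, between 19.45 and 32.85 on the 9 arrays. Correlations of log2 signals ran from 0.873 to 0.964 among the 9 arrays and from 0.418 to 0.47 between E12.5 replicate 2 and the others. The signal ratio of the 3′ to the 5′ probe set of Actb, which rises as RNA breaks down, was 10.57 on the remaining E12.5 array and 1.51 to 2.22 on the 8 arrays from other stages. The arrays were washed in 3 fluidics runs, the first with E11.5 and E12.5, the second with E14.5 and E16.5 and the third with E18.5 alone, and in comparisons across runs the run and the stage cannot be told apart. The number of arrays limits the precision, since an exact test of 2 arrays against 2 cannot give a two-sided p below 0.333. Tests were therefore made with limma over all 27510 probe sets that passed a filter on low signal, with adjusted p-values over all of them.

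All 8 probe sets passed the filter and the F test over the 5 stages, which called 33.7% of all probe sets tested. The strongest was Lhx8 with an adjusted p of 9.36e-08, and the weakest was the dimmest Taf4b probe set, 1431193_at, with 0.00945. Nobox passed the filter through its 2 E18.5 arrays alone and Lhx8 through its E16.5 and E18.5 arrays, so that these had to differ between stages. In the fit of all 45037 probe sets without the filter Nobox remained higher at E18.5 than at E16.5, with an adjusted p of 0.00235. From E11.5 to E18.5 all 8 probe sets rose, where 11.8% of probe sets tested were called higher.

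**Figure D1:**
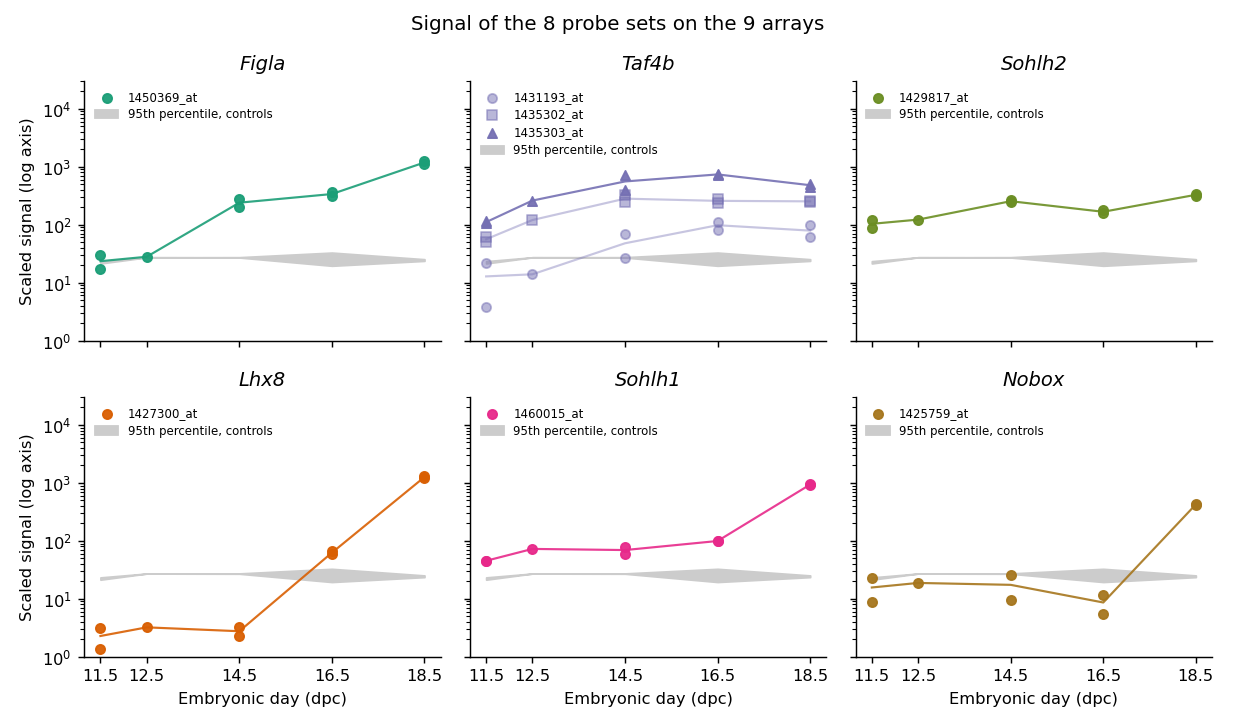
Scaled signal (log axis) of each of the 8 probe sets on the 9 arrays against embryonic day, with 1 panel a gene, 1 point an array and lines through stage means. The grey band spans the background levels of the arrays of each stage, and Nobox leaves it at E18.5, Lhx8 at E16.5 and Figla by E14.5.

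Sohlh2, the bHLH partner of Sohlh1, was above background on all 9 arrays. Its signals were 88.3 and 118 at E11.5, 122 at E12.5, 242 and 265 at E14.5, 176 and 157 at E16.5, and 310 and 344 at E18.5. Both E14.5 arrays were above every earlier array, both E16.5 arrays lay below the E14.5 arrays, and the E18.5 arrays were the highest. Sohlh2 rose by 1.19 ± 0.21 (log2 change ± SE of the limma fit) from E11.5 to E14.5, with an adjusted p of 0.005 and a 2.46-fold ratio of mean signals. Figla, Sohlh2 and 2 of the 3 Taf4b probe sets made up the 4 members called in that comparison, where 2.73% of probe sets tested were called higher. The step from E14.5 to E16.5, −0.56 ± 0.21, did not pass (adjusted p 0.165), nor did the step to E18.5, 0.91 ± 0.21 (0.0762). Over the whole span Sohlh2 rose by 1.54 ± 0.21 (adjusted p 0.000212), the smallest increase of the 6 genes in this fit.

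Taf4b rose early, and no later step passed the test. Its brightest probe set read 107 and 114 at E11.5, 260 at E12.5, 709 and 402 at E14.5, 760 and 709 at E16.5, and 446 and 511 at E18.5. All arrays from E14.5 on lay above the E11.5 and E12.5 arrays, the E14.5 arrays overlapped both later stages, and the E18.5 arrays lay below the E16.5 arrays. The second probe set, 1435302_at, read 61.7 and 50.3, then 120, then 239 to 319 on the 6 later arrays. Taf4b rose by 2.12 ± 0.24 from E11.5 to E14.5 (adjusted p 0.000137), and 1435302_at by 2.04 ± 0.22 (8.02e-05). The third, 1431193_at, was at 3.77 and 21.8 at E11.5 and at 68.4 and 26.9 at E14.5, near background, and its change of 1.14 ± 0.43 did not pass (adjusted p 0.161). It rose by at least 4.3-fold from E11.5 to E16.5, taking background as the ceiling at E11.5. In the 9-array fit Taf4b was already higher at E12.5 than at E11.5, by 1.13 ± 0.30 (adjusted p 0.0309), as was 1435302_at, and these were the 2 members called there against 3.73% of probe sets called higher. That step rests on the single E12.5 array with the high Actb ratio, whose spread was taken from the other stages, and it kept its call in 6 of 17 alternative fits. From E14.5 to E18.5 the change was −0.16 ± 0.24 (adjusted p 0.712).

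Figla came up after E12.5. It read 17.1 and 29.7 at E11.5 and 27.9 at E12.5, then 276 and 202 at E14.5, 368 and 306 at E16.5, and 1132 and 1231 at E18.5. The arrays up to E12.5 lay around background and overlapped, and from E14.5 each stage lay above the one before with no overlap. Figla was 10.2-fold higher at E14.5 than at E11.5 by mean signal, a log2 change of 2.70 ± 0.24 (adjusted p 1.23e-05). Against the single E12.5 array the change was 2.53 ± 0.29 (adjusted p 0.000172), in a comparison with 4 members called and 5.66% of probe sets called higher. The E14.5 and E16.5 stages differed by 0.48 ± 0.24, which did not pass (adjusted p 0.287). From E16.5 to E18.5 Figla rose again, 3.5-fold by mean signal and by 1.77 ± 0.24 on the log2 scale (adjusted p 0.00292), and the adjusted p was 0.0542 with either E18.5 array left out. The whole span came to 50.4-fold, with a log2 change of 4.94 ± 0.24 (adjusted p 2.81e-08). The 10.2-fold and 50.4-fold ratios divide by E11.5 signals around background, so their size is uncertain.

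Lhx8 was at background through E14.5 and rose in 2 steps after it. Its signals were 1.37 and 3.20 at E11.5, 3.22 at E12.5, 2.3 and 3.22 at E14.5, 66.1 and 58.7 at E16.5, and 1304 and 1220 at E18.5. The first 5 arrays were all below background, and the E16.5 arrays were above it and far below the E18.5 arrays. The first step was at least 2.29-fold, with background as the ceiling of the E14.5 arrays, and 2.06 ± 0.30 in the fit (adjusted p 0.00485). Lhx8 was the 1 member called from E14.5 to E16.5, where 1.1% of probe sets tested were called higher. The call depends on replicate 2 of E16.5, since the adjusted p was 0.0641 without that array, and 0.0628 within the fluidics run that holds both stages. The second step was 20.2-fold by mean signal and 4.03 ± 0.30 on the log2 scale (adjusted p 2.59e-05). From E14.5 to E18.5 Lhx8 rose at least 46.3-fold. Fitted log2 changes from background depend on the constant added before the logarithm, and the first step came to 4.08 with 1 added and 0.92 with 64.

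Sohlh1 was measured from the start and rose late. It read 45.2 and 45.4 at E11.5, 72.6 at E12.5, 79.0 and 59.8 at E14.5, 99.5 and 99.4 at E16.5, and 933 and 940 at E18.5. All 9 arrays were above background, the E16.5 arrays lay above all earlier ones, and both E18.5 arrays stood far above the rest. Neither step up to E16.5 passed: the change from E11.5 to E14.5 was 0.47 ± 0.22 (adjusted p 0.253) and the next 0.44 ± 0.22 (0.284), while E16.5 was not tested against E11.5. From E16.5 to E18.5 Sohlh1 rose 9.42-fold, by 3.04 ± 0.22 (adjusted p 2.29e-05). Over the whole span it rose 20.7-fold, by 3.96 ± 0.22 (9.79e-08).

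Nobox was the last to leave background. Its signals were 22.5 and 8.88 at E11.5, 18.8 at E12.5, 25.4 and 9.45 at E14.5, 11.8 and 5.49 at E16.5, and 415 and 436 at E18.5. Of the 7 arrays before E18.5 only E11.5 replicate 1 was above its background of 21.4, and by little. Nobox was at least 16.8-fold higher at E18.5 than at E16.5, with a log2 change of 4.18 ± 0.39 (adjusted p 0.000231), which came to 5.55 with 1 added before the logarithm and 2.75 with 64. Nobox, Lhx8, Sohlh1 and Figla were the 4 members called from E16.5 to E18.5, where 0.611% of probe sets tested were called higher. The same 4 were called from E14.5 to E18.5, against 5.54% of probe sets called higher, with Lhx8 at 6.09 ± 0.30, Nobox at 3.77 ± 0.39, Sohlh1 at 3.49 ± 0.22 and Figla at 2.24 ± 0.24.

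**Figure D2:**
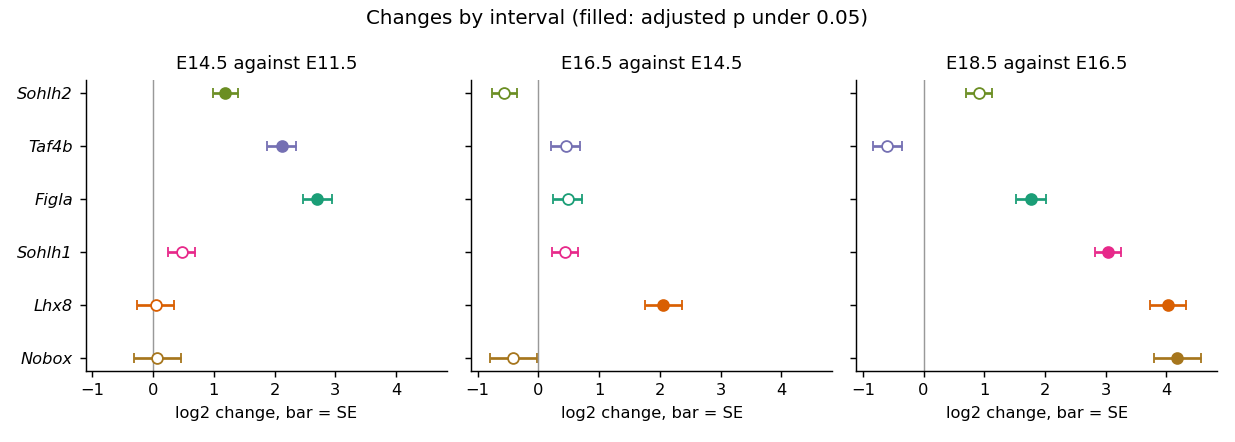
Log2 change ± SE of the 6 genes (1 probe set each) in 3 intervals, with filled points where the adjusted p of limma was under 0.05. Figla, Taf4b and Sohlh2 are filled in the first interval, Lhx8 alone in the second, and Nobox, Lhx8, Sohlh1 and Figla in the third.

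Signals of different probe sets cannot be set against each other, so the order of onset was read from each gene's share of its own highest stage mean, as a description without a test. Sohlh2 was at 27% and 36% of its highest mean on the E11.5 arrays and Taf4b at 14.6% and 15.5%. Both had reached 50% on every E14.5 array, with Taf4b at 54.7% on its lower one. Sohlh2 did not hold this mark, at 54% and 47.9% on the E16.5 arrays. These Taf4b shares are of its brightest probe set, and 1435302_at had the same onset stages. The dim 1431193_at was above background on every array from E16.5, reached 10% at E12.5 and 50% at E16.5, and stood at 70.1% and 27.6% on the E14.5 arrays. On the E14.5 arrays Figla was at 23.4% and 17.1%, Sohlh1 at 8.44% and 6.39%, Nobox at 5.97% and 2.22%, and Lhx8 at 0.182% and 0.255%. By E16.5 Figla was at 31.2% and 25.9%, Sohlh1 at 10.6% on both arrays, Lhx8 at 5.24% and 4.65%, and Nobox, still below background, at 2.77% and 1.29%. These 4 genes passed 50% at E18.5. By the 10% mark the order was thus Sohlh2 and Taf4b at E11.5, Figla at E14.5, Sohlh1 at E16.5, and Lhx8 and Nobox at E18.5. By the first stage from which every array lay above background it was Sohlh1, Sohlh2 and Taf4b at E11.5, Figla at E12.5, Lhx8 at E16.5 and Nobox at E18.5. Since E11.5 was the first stage sampled, genes placed there began at or before it, and their order among themselves was not observed. The readings place Sohlh1 differently because it was above background early at a small share of its later signal. The single E12.5 array had Figla at 27.9 against a background of 27.28, and with the 99th percentile of the controls as background Figla's day moved to E14.5.

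**Figure D3:**
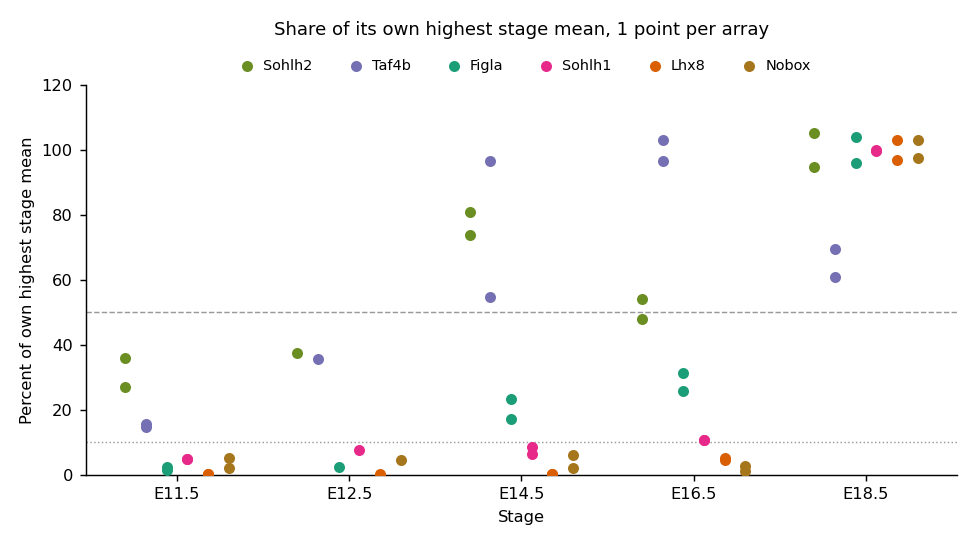
Percent of its own highest stage mean that each of the 6 genes reached on each of the 9 arrays, with dotted and dashed lines at 10% and 50%. At E14.5 Sohlh2 and Taf4b lie above the dashed line, Figla lies between the lines, and Sohlh1, Lhx8 and Nobox lie below the dotted line.

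These are whole ovaries, so a change in the number of germ cells and a change in RNA per germ cell cannot be told apart. Germ cell markers were therefore set beside the factors. The summed signal of 11 such markers was 966 and 942 on the E11.5 arrays, 2352 at E12.5, 7880 and 7806 at E14.5, 6148 and 5886 at E16.5, and 8140 and 8425 at E18.5. From E11.5 to E14.5 8 of the 11 were higher and none lower, against 3.48% of genes called higher, with a median change of 2.40 where all genes tested had −0.03. Mael, a piRNA pathway protein, rose by 4.34 ± 0.21 and Dazl, a germ cell RNA-binding protein, by 3.86 ± 0.26 in that interval, when Figla, Taf4b and Sohlh2 also rose. From E16.5 to E18.5, when Nobox, Lhx8, Sohlh1 and Figla rose, 3 of the 11 were called higher and none lower, against 0.842% of genes called higher, and the median change was 0.23 where all genes had 0.02. The 3 were Mov10l1 (1.50 ± 0.22), Tdrd9 (2.84 ± 0.37) and Tdrd1 (2.75 ± 0.50), all of the piRNA pathway, with Tdrd1 named after its values were seen. Mael (0.96 ± 0.21, adjusted p 0.0521), Dazl (0.45 ± 0.26), Stk31 (0.21 ± 0.21) and Tex101 (−0.63 ± 0.21) did not pass in that interval. Tdrd1 passed the filter through its E18.5 arrays alone, so it had to differ between stages. Tdrd9 reached the level of the filter on E16.5 replicate 2 (93.8) and at E18.5 only, so it too needed an E18.5 array to be tested. Tdrd1 and Tdrd9 were below background on both E14.5 arrays, as were Lhx8 and Nobox. In the fit Tdrd1 rose by 3.43 ± 0.50 and Tdrd9 by 4.74 ± 0.37 from E14.5 to E18.5. Whether the changes of the 4 factors differ from those of the markers was not tested. The list of 13 meiotic genes holds genes of meiotic entry as well as of pairing and recombination of chromosomes. All 13 were higher at E14.5 than at E11.5. From E16.5 to E18.5 none was higher and 3 were lower, against 0.271% of genes called lower.

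**Figure D4:**
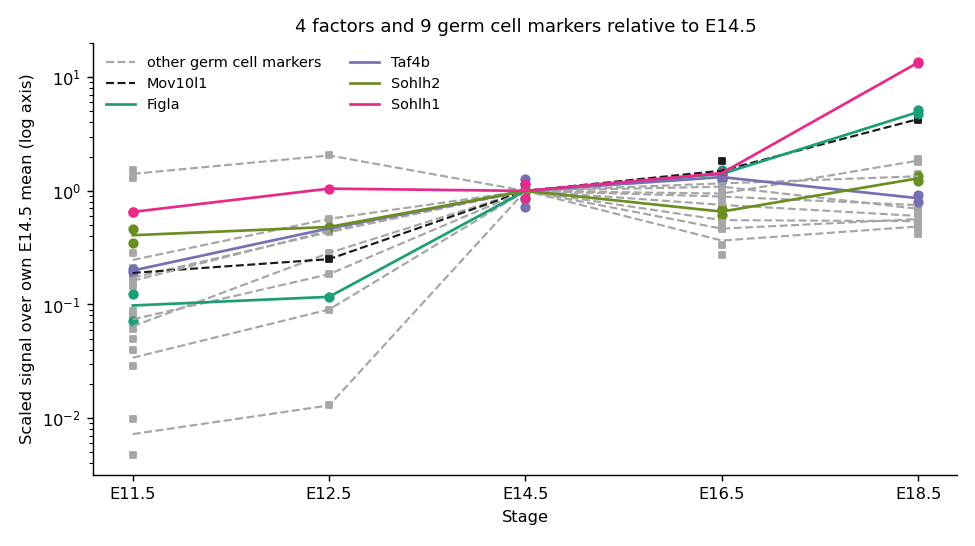
Scaled signal divided by the gene's own E14.5 mean (log axis) for the 4 factors (Figla, Taf4b, Sohlh2 and Sohlh1) and the 9 germ cell markers above background on both E14.5 arrays (dashed, Mov10l1 in black), with 1 point an array and lines through stage means. Tdrd1 and Tdrd9, which also rose from E14.5 to E18.5, are left out because they were below background at E14.5. At E18.5 Sohlh1 has a ratio of 13.5, Figla 4.94 and Mov10l1 4.28, and the other 8 markers lie between 0.486 and 1.85, with Taf4b and Sohlh2 among them.

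Other cell types moved over the same days. Of 10 pregranulosa markers, genes of the somatic cells that surround the oocyte, all were above background on the 9 arrays. From E11.5 to E14.5, when Figla, Taf4b and Sohlh2 rose, 5 of the 10 were higher and 1 lower, against 3.48% and 2.13% of genes, with Irx3 at 2.68 ± 0.20 and Lgr5 at 2.67 ± 0.21. From E16.5 to E18.5 none was called, against 0.842% of genes higher and 0.271% lower. Their summed signal was 3939 and 4833 at E11.5, 4695 at E12.5, 4942 and 5008 at E14.5, 5845 and 6196 at E16.5, and 4863 and 5249 at E18.5. Whether these cells had a part in the members' values was not tested. Of 6 hepatocyte markers tested, 4 were higher at E18.5 than at E16.5, against 0.842% of genes. Fgb, among these 4, passed the filter through its E18.5 arrays alone. The summed signal of the 7 hepatocyte markers on the array was 162 and 177 at E11.5, 495 at E12.5, 1331 and 3406 at E14.5, 624 and 957 at E16.5, and 3533 and 3816 at E18.5, so it was high at E18.5 together with the 4 late factors. It was also high on E14.5 replicate 2, where Lhx8 read 3.22, Nobox 9.45, Sohlh1 59.8 and Figla 202. Albumin (Alb) read 1985 and 2247 at E18.5. Apob, the only marker of the 7 that was not tested, read 10.6 and 25.2 there. Both lay below background, the second by little (25.2 against 25.3), and Apob was named after its values were seen. From E11.5 to E18.5 all 6 hepatocyte markers tested were higher. Of 10 pregranulosa markers 5 were higher and 2 lower, of 11 pluripotency genes 1 was higher and 9 lower, of 4 erythroid markers 1 was higher and 3 lower, and of 4 endothelial, 3 leukocyte and 4 exocrine pancreas markers 2 each were lower and none higher. The only testis marker tested, Ptgds, was higher, against 13.3% of genes called higher and 16.4% lower. Whether liver RNA had a part in the members' values was not tested.

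The partners and inhibitors of bHLH factors were read next. E proteins, which pair with tissue-specific bHLH factors, were not called higher: from E11.5 to E18.5 Tcf12 changed by 0.05 ± 0.19 (adjusted p 0.86), Tcf3 by −0.40 ± 0.22 (0.2), and Tcf4 fell by 0.83 ± 0.28 (0.041). Of the 7 genes of the group 2 were higher and 2 lower over that span, against 13.3% and 16.4% of genes tested. Id1, which binds E proteins and keeps them from DNA, was among the higher 2. It read 556 and 595 at E11.5, 655 at E12.5, 579 and 671 at E14.5, 1175 and 1301 at E16.5, and 3173 and 3208 at E18.5. The Id1 arrays of E12.5 and E14.5 overlapped, and those of E16.5 and E18.5 stood apart above them, by 0.97 ± 0.18 to E16.5 (adjusted p 0.018) and by 1.36 ± 0.18 to E18.5 (0.0032). Id4 was the other, at 1.21 ± 0.24 over the span, and Id2 fell by 0.70 ± 0.20.

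Lhx8 is one of the LIM homeodomain proteins, and its relatives and cofactors were read over the same span. Of 6 tested out of 9 on the array, none was higher and 2 were lower at E18.5 than at E11.5, against 13.3% and 16.4% of genes. Lhx9, a factor of the early gonad, was the larger, from 3462 and 2360 at E11.5 to 889 and 920 at E18.5, a log2 change of −1.64 ± 0.27 (adjusted p 0.00074). Lmo2 changed by −0.97 ± 0.26, and Ldb1, the cofactor that LIM domains bind, by −0.40 ± 0.21 (adjusted p 0.19). Lhx2 was not tested for want of signal, and read 0.799 to 26.7 on the 9 arrays.

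Taf4b was one of a few TFIID subunits to rise from E11.5 to E14.5. Of the 18 other subunits of TFIID and TFIIA tested, Taf7l (2.40 ± 0.18, adjusted p 2.5e-06) and Taf9b (1.30 ± 0.23, 0.0043) were higher and Gtf2a1 lower (−1.61 ± 0.24, 0.0016) over that interval, against 3.48% of genes called higher and 2.13% lower. Taf7l, a germ cell relative of Taf7, read 170 and 172 at E11.5, 148 at E12.5, 1004 and 948 at E14.5, 1072 and 1007 at E16.5, and 1292 and 1314 at E18.5. Like Taf4b it stood higher on every array from E14.5 on than on any before. Taf4, the widely expressed relative of Taf4b, read between 86.7 and 190 on the 9 arrays and changed by 0.13 ± 0.22 from E11.5 to E18.5 (adjusted p 0.71). Over the whole span 5 subunits rose, Taf7l, Taf9b, Taf5, Taf3 and Taf7, and 4 fell, Gtf2a1, Tbp, Taf13 and Taf6, against 13.3% and 16.4% of genes called. Of these Taf7, Tbp and Taf13 were named after their values were seen.

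**Figure D5:**
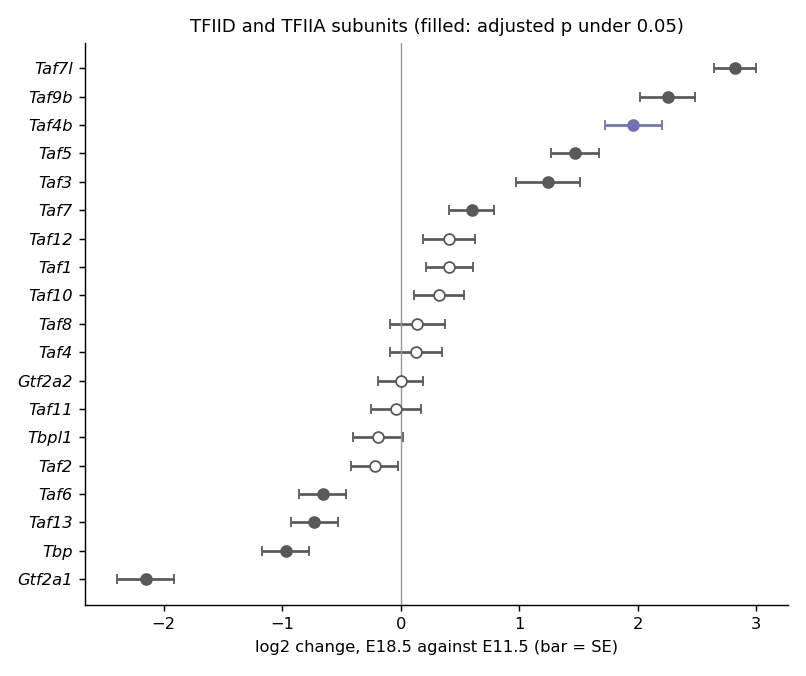
Log2 change ± SE from E11.5 to E18.5 of Taf4b (purple) and of 18 other TFIID and TFIIA subunits, with filled points where the adjusted p of limma was under 0.05. Taf4b, at 1.96 ± 0.24, comes after Taf7l and Taf9b, and Taf4 lies near 0.

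Genes of the growing oocyte, several of which are targets of these factors in mice, were read for the same days. Of 22 on the array 15 were tested, and from E16.5 to E18.5 4 were higher and none lower, against 0.842% and 0.271% of genes, with a median change of 0.93 where all genes had 0.02. These were Nlrp4f (4.29 ± 0.42), Nlrp5 (3.28 ± 0.27), Kit (2.47 ± 0.25) and Padi6 (1.83 ± 0.35). Of these Nlrp4f passed the filter through its E18.5 arrays alone, so it was tested only because it was high then. Padi6 reached the level of the filter on E16.5 replicate 2 (65.8) and at E18.5 only, so it too needed an E18.5 array to be tested. Nlrp5, a maternal effect gene, read 6.97 and 8.98 at E11.5, 40.3 to 66.0 on the 5 arrays from E12.5 to E16.5, and 601 and 649 at E18.5. Kit, the receptor for Kit ligand on oocytes, read 176 and 181 at E11.5, 157 at E12.5, 108 and 150 at E14.5, 79.9 and 46.1 at E16.5, and 413 and 411 at E18.5. E16.5 was thus its lowest stage, and its change from E11.5 to E18.5 was 1.14 ± 0.25 (adjusted p 0.00467). Against E14.5, 7 of the 15 were higher at E18.5, where 6.29% of genes were called higher. These included Zp2 (2.15 ± 0.47) and Zp3 (1.68 ± 0.44), zona pellucida genes that Figla activates, at 86.4 and 97 for Zp2 and 68.7 and 64.3 for Zp3 on the E18.5 arrays. Neither passed from E16.5 to E18.5 (adjusted p 0.123 and 0.261). Like Nlrp4f, Zp2 and Zp3 passed the filter through their E18.5 arrays alone, and Padi6 needed an E18.5 array. The counts among the 15 are thus partly set by the filter. From E11.5 to E18.5 Zp2 rose by 1.68 ± 0.47 (adjusted p 0.0191), and Zp3, which read 28.5 and 29.2 at E11.5, changed by 0.88 ± 0.44 (0.164) and did not pass the F test (0.067). Zp3 was named after its values were seen. Zp1, the remaining zona gene on the list and also named so, had a change of 0.19 ± 0.43 (adjusted p 0.81). Gdf9, a growth factor of growing follicles named in the same way, changed by 0.61 ± 0.26 (0.14), and Bmp15 was not tested for want of signal. At E14.5, when Figla had risen, Zp2 read 7.1 and 9.45 and was below background.

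Likeness of profiles was read as Pearson's r of log2 signals over the 9 arrays among the 13305 genes that passed the filter. It is a description, since the arrays share stages and scaling. Nobox, Nlrp4f and Tdrd1 passed the filter through their E18.5 arrays alone, so they had to share high E18.5 signals. Among the members Lhx8 and Sohlh1 were most alike (0.976), followed by Nobox and Sohlh1 (0.954), Figla and Sohlh2 (0.903) and Nobox and Lhx8 (0.891). Taf4b was most like Figla (0.782) and least like Nobox (0.167). The genes nearest to Figla were Kmt2c (0.995), Cpeb1 (0.993), Mov10l1 (0.987), Igf1os (0.980) and Pcgf5 (0.980). Nearest to Lhx8 were Id1 (0.993), 5430440P10Rik (0.984), Tdrd1 (0.979), Pramel13 (0.976) and Sohlh1. Nearest to Sohlh1 were Cnpy1 (0.992), Akap17b (0.990), Sec22a (0.986), Tdrd1 (0.981) and B430306N03Rik (0.978). Cnpy1 also led the list of Nobox (0.980), ahead of Gm527, Pdcl2, Heca and Nlrp4f, all between 0.977 and 0.978. Sohlh2 had Micu3 (0.986), Nr1d2, Hdac6, Enpp5 and Tab3 (0.968), and Taf4b had BC049762 (0.980), Fam228b, Trpm5, Spata5 and Ddb2 (0.971).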

How the data were processed

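Gene expression was measured on 10 Mouse430_2 oligonucleotide arrays of embryonic ovary, with Trizol extraction and single cycle biotin labelling per the labels' protocols. The deposited value table held 1 intensity per probe set on a linear scale, and the mean after trimming 2% at each end was equal on all arrays. The software behind these signals is not given in the sources used here. Other content was deposited as experiment files of wash and scan settings, which gave the fluidics runs.

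The table had 45101 probe sets, 64 of them controls. Of the rest 34945 had 1 symbol, 932 several and 9160 none in the platform annotation, and 34741 of the first were matched to RefSeq. Intensities were scaled to a common 75th percentile (141.6) and taken as log2(signal + 16), which understates changes of dim genes. The filter kept probe sets with 2 or more of the 9 arrays reaching 47.7, the median over all values. limma 3.58.1 (R 4.3.3) fitted 1 mean per stage, with eBayes and an intensity trend, 4 residual and 9.26 prior degrees of freedom, two-sided tests and Benjamini-Hochberg adjustment at 0.05. For lists the probe set with the highest mean log2 value stood for its gene. An "at least" fold takes, for a stage below background on all its arrays, the background of each array or the signal where that is higher. Tables were made with pandas 2.3.3 and numpy 2.4.6 in Python 3.11.15, figures with matplotlib 3.10.9, and the fit was tested on simulated data.

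The members and gene lists were chosen with earlier results of these data known. Named genes were the members, the list genes past the F test with the widest range of stage means (at most 6 a list), direct partners and paralogs, and the 5 most alike profiles per member; others are marked in the text. The lists were bHLH partners, LIM relatives, TFIID and TFIIA, oocyte, germ cell, meiotic, pluripotency, pregranulosa, testis, hepatocyte, exocrine pancreas, erythroid, endothelial and leukocyte genes. The preparations of a stage were separate per the labels, which name no animals, so p-values measure the spread between preparations. Alternatives covered arrays, scaling, pseudocount, filter, variance model, each array left out, the replicate number as a block and the fluidics run.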

Additional observations from a re-analysis of the deposited data

How the results depend on the processing

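Of 42 changes of the 6 genes, 22 were called, 17 of these under every alternative other than the fit of all 10 arrays, and 11 under that too. The Nobox calls at E18.5 are in both counts but were read in 15 alternatives only. The fits without an E18.5 array, which would try these calls most, gave no value for Nobox. With all 10 arrays the F test called 4 of the 8 probe sets and 425 of all 28857, where the 9-array fit called 33.7%. The 10-array fit called 0 members for E12.5 against E11.5 (0.648% of all probe sets), 1 for E14.5 against E12.5 (0.534%) and 1 for E14.5 against E11.5 (0.256%). It called 0 for E16.5 against E14.5 (0%), 2 for E18.5 against E16.5 (0.0104%) and 4 for E18.5 against E11.5 (1.05%). For E18.5 against E14.5 it called 3 (0.0347%), and Figla did not pass there (adjusted p 0.106). These shares of all probe sets were lower than in the 9-array fit too. For E12.5 against E11.5 the count went from 2 to 0 on values as deposited, with quantile normalization, with 64 added before the logarithm, without the filter and without the intensity trend, and to 1 within the fluidics run. For E14.5 against E12.5 it went from 4 to 2 without the filter and to 1 without the trend. For E16.5 against E14.5 it was 0 within the fluidics run, which holds fewer arrays, and 1.9% of all probe sets were called there, against 3.06% in the 9-array fit. Leaving out 1 array gave counts between 0 and 1 for E12.5 against E11.5, 2 and 4 for E14.5 against E12.5, 0 and 1 for E16.5 against E14.5, and 2 and 4 for E18.5 against E16.5, the last with 2 when either E18.5 array was left out. Nobox failed the filter without either E18.5 array and has no value there. Arrays left alone in a stage were assumed to vary like the others. Replicate numbers did not pair the arrays, since the correlations of replicate differences between stages ran from -0.073 to 0.036. With the replicate number as a block the count for E12.5 against E11.5 was 0 and Nobox changed by -0.03 there and by 0.10 from E12.5 to E14.5.

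The changes that turned sign were small and uncalled. From E12.5 to E14.5 Sohlh1 changed by 0.13 with 10 arrays and 0.12 as deposited, and Nobox by 0.02 as deposited. From E11.5 to E14.5 Nobox changed by -0.05 with quantile normalization. With 1 array left out, changes from E12.5 to E14.5 ran from -0.23 to 0.10 for Sohlh1, -0.45 to 0.25 for Nobox and -0.07 to 0.00 for Lhx8. From E11.5 to E14.5 they ran from -0.28 to 0.42 for Nobox and -0.03 to 0.11 for Lhx8, from E11.5 to E12.5 from -0.06 to 0.41 for Figla and -0.14 to 0.49 for Nobox, and from E14.5 to E18.5 from -0.56 to 0.24 for Taf4b. The cause was not tested. Sohlh2 passed from E16.5 to E18.5 with 64 added, at an adjusted p of 0.0469, and lost its step from E12.5 to E14.5 in 8 of 16 alternatives. Of all calls, 44.8% were higher from E11.5 to E18.5 and 56.7% on deposited values; from E11.5 to E14.5 59.1% and 69.5%, from E12.5 to E14.5 50.8% and 69.8%, and from E11.5 to E12.5 41.4% and 31.1%. With 25% in place of 10% of the highest mean the onset moved to E16.5 for Figla, E18.5 for Sohlh1 and E12.5 for Taf4b. With quantile normalization Sohlh1 reached 10% at E18.5 and Taf4b 50% at E16.5. Signals of Nobox and Lhx8 at background set only bounds, and the ratios of Figla to E11.5 rest on signals around background.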

Other observations

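On E12.5 replicate 2, which was not relied on, the scaled signals were 20.9 for Figla, 87.2 for Lhx8, 39.0 for Nobox, 51.9 for Sohlh1, 216 for Sohlh2 and 230 for the brightest Taf4b probe set, and the background of the controls on that array was 150.86. Sohlh2 and Taf4b were the 2 of the 6 genes above it.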
